A study of Equus caballus with 17 samples.

Results

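Small RNA sequencing compared testis of pubertal horses (Equus caballus; the stage Puber in the labels, libraries 10, 11 and 19) with testis of infant horses (the stage Infant, libraries 31a, 31b and 30). These are 6 of the 17 libraries of a study of the developing testis. The other libraries were Pre-puber testis (n = 3), Adult testis (n = 4) and sperm, which was not used here. The table named 274 annotated mature miRNAs, of which 222 had a count in the 6 libraries, and 1461 predicted hairpins, of which 1155 did. Annotated miRNAs were the entries with a horse miRNA name, with the entry of the highest summed count kept for each name. Predicted hairpins are entries with a sequence and a genome position but no miRNA name, and they are described separately. The labels give tissue and stage, and no age, breed, genotype or treatment. They do not say that the libraries of a group came from separate animals, and Infant 31a and 31b share a title number, and p-values therefore reflect the spread among libraries, which may be technical. The edgeR tests took that spread from all 13 testis libraries.

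MicroRNAs are short RNAs cut from hairpin precursors that pair through their first bases (the seed) with messenger RNAs and lower their output. In mice the testis of an infant holds Sertoli, Leydig, peritubular and other somatic cells around spermatogonia, and meiotic and then haploid germ cells appear and multiply through puberty. Also in mice, miR-34b, miR-34c and the miR-449 miRNAs mark germ cells from meiosis onwards, and the X-linked miR-506 family is expressed in the testis. RNA came from testis tissue, so fewer cells of a type and less RNA per cell cannot be told apart.

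Depth differed with the stage. Puber 10, 11 and 19 held 6.038, 4.519 and 3.959 M (mega) counts of annotated miRNAs, against 9.535, 12.373 and 9.63 M in Infant 31a, 31b and 30. Levels below are in CPM (a count divided by the library's annotated counts in M) after TMM scaling, which sets libraries to a common level through the bulk of the miRNAs. Infant 31a and 31b were the most alike pair of libraries within a group (Pearson correlation of log2 levels across miRNAs 0.996, against 0.982 to 0.993 for the other pairs). Their counts differed beyond counting noise (chi-square per degree of freedom 2913), so they are not copies of 1 library, and whether they come from 1 animal is not known.

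The sequences shown here are those of predicted hairpins, since the mature sequences of the annotated miRNAs were not used. They are given 5′ to 3′ as the deposited table writes them, with EquCab3.0 positions. The first 3 share 16 bases, in capitals, and stand for the largest group of related hairpins, whose summed level was 185 times higher in Puber. The next 2 had no count in any Infant library. The last 3 were the most abundant hairpins, and their capitals mark bases 2 to 8. The positions are chr20:61729814-61729868 (minus strand), chr16:61125042-61125085 (minus), chr3:60895860-60895902 (plus), chr11:61552700-61552746 (plus), chr21:15197217-15197284 (plus), chr1:594419-594474 (plus), chr6:80187889-80187965 (plus) and chr6:7834344-7834399 (plus), in the order shown.
20_2272886: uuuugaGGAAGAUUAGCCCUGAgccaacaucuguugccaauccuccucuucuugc
16_1318773: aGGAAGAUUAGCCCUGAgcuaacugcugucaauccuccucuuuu
3_3707936: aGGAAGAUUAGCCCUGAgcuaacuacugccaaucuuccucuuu
11_320285: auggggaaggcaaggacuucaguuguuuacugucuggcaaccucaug
21_2297470: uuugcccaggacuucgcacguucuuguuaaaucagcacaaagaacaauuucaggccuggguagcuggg
1_1707588: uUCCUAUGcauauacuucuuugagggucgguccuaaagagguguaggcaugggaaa
6_4351986: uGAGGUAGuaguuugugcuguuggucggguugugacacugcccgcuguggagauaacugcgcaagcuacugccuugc
6_4267002: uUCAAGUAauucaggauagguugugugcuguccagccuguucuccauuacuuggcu

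Among annotated miRNAs, miR-34c with its relatives, the miR-506 family, the miR-17-92 paralogs and many numbered only in the horse were higher in Puber, mostly by large factors, while miR-26a, miR-99a, miR-135a and some miRNAs of imprinted regions were lower, mostly by small ones. Of the 184 annotated miRNAs with enough counts to test, 67 (36.4%) passed edgeR's quasi-likelihood test at an adjusted p under 0.05. In Puber 39 (21.2%) were higher and 28 (15.2%) lower. At least 4-fold changes were 33 of the rises and 7 of the falls. The 3 Puber libraries lay wholly above or below the 3 Infant libraries for 94 miRNAs (51.1%), 54 higher (29.3%) and 40 lower (21.7%). The median log2 fold change of all tested miRNAs was 0.05. The other 90 annotated miRNAs had at most 40 counts over the 6 libraries, and 52 of them had none.

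Which calls held depended on the scaling. All rises held under both scalings by library totals, and all falls in a joint fit with the hairpins. Dividing by the annotated total alone moved the median log2 fold change to 0.62, with 56 miRNAs called higher and 11 lower. Dividing by the total of all entries moved it to 0.65, with 56 higher and 10 lower. Upper-quartile scaling moved it to -0.34, with 38 higher and 40 lower. A fit of annotated miRNAs and hairpins together moved it to -1.47, with 31 higher and 100 lower. All 39 rises were called under both totals and 31 also in that joint fit. For the falls it was the other way round: all 28 were called in the joint fit, and 10 under both totals. The totals moved the median up and the joint fit moved it down, so each favoured 1 direction. The 10 falls called under both totals were let-7d, miR-26a, miR-99a, miR-135a, miR-211, miR-299, miR-335, miR-361-5p, miR-675 and miR-873.

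**Figure D1:**
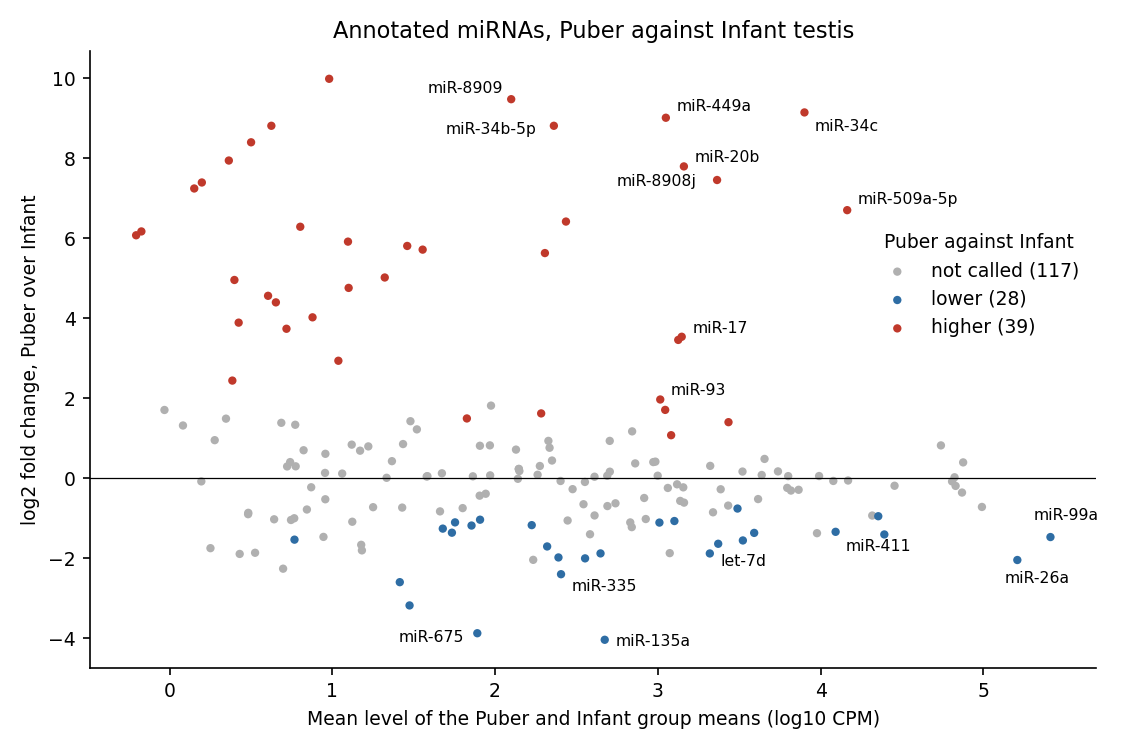
log2 fold change of each of the 184 tested annotated miRNAs, Puber over Infant (vertical axis), against the mean of the 2 group means (horizontal axis, log10 CPM). Red points rose (39), blue points fell (28) and grey points did not pass the test (117). Rises far above 4-fold reach up to the level of miR-509a-5p, and no more abundant miRNA was called higher. The most abundant miRNAs, miR-99a and miR-26a, lie below 0.

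The means of the other testis stages were read beside these calls, as a description. Of the 39 rises, 36 had a Pre-puber mean between those of Puber and Infant, the exceptions being miR-371-5p, miR-20a and miR-499-5p. The Adult mean was above that of Puber for 26 of them. Of the 28 falls, 26 had a Pre-puber mean between those of Puber and Infant, the exceptions being miR-369-5p and miR-873. The choice of miRNAs with a gap between Puber and Infant itself favours such an in-between mean. No share over all tested miRNAs is given here for comparison. Pre-puber libraries could be uneven, as for miR-34c (909.6 ± 1482 CPM, SD) and miR-20b (1353 ± 2110 CPM, SD). Some Pre-puber libraries also share a title number. The Adult mean stood on the same side of the Infant mean as the Puber mean for all 39 rises and all 28 falls, as a description, since these share the Infant libraries.

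The miR-34 and miR-449 family held 3 of the 4 largest rises at 50 CPM or more in a group, the other being miR-8909. These miRNAs share a seed and in mice act in spermatogenesis and in the making of motile cilia. miR-34c had 10410, 20290 and 17030 CPM in Puber, against 45.8, 23.98 and 14.5 CPM in Infant. Its lowest Puber library was far above its highest Infant library, and the log2 fold change was 9.15 ± 1.53 (SE; edgeR adjusted p = 0.000749), or 567-fold. It ranked 12 in Puber and 115 in Infant by mean level. Over the 4 testis stages the means were 28.1 ± 16.01 CPM (Infant), 909.6 ± 1482 CPM (Pre-puber), 15910 ± 5034 CPM (Puber) and 36940 ± 4088 CPM (Adult) (SD, n = 3, 3, 3 and 4).

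miR-449a had 1280, 1896 and 3538 CPM in Puber, against 5.94, 4.18 and 2.88 CPM in Infant. The groups did not overlap, and the log2 fold change was 9.02 ± 1.70 (SE; edgeR adjusted p = 0.00111). miR-34b-5p, whose gene neighbours that of miR-34c, had 251.7, 611.5 and 512.8 CPM in Puber, against 1.08, 1.67 and 0.25 CPM in Infant. Its log2 fold change was 8.81 ± 1.39 (edgeR adjusted p = 0.000749), and 9.5 without Infant 31b. miR-449b was rarer, with 193 counts in Puber and 3 in Infant. The ratio of these sums per scaled library size was 93.7 (exact binomial 95% interval 31.6 to 458, counting error only), and the log2 fold change was 5.25 without Puber 19, 5.7 without Infant 30 and 7.34 without Infant 31a.

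The remaining member, miR-34a, is transcribed from its own gene and is known as a p53 target in many tissues. It had 59.7, 54.2 and 45.1 CPM in Puber, against 166.6, 84.2 and 75.6 CPM in Infant. It fell by 1.04 ± 0.37 on the log2 scale (edgeR adjusted p = 0.0425), but the call was lost under 10 of 17 alternatives and the value was -0.55 without Infant 31a. Of the 5 members tested, 4 were thus higher (21.2% of all tested miRNAs) and 1 lower (15.2% of all), with a median log2 fold change of 8.81 beside 0.05 over all tested.

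The X-linked miR-506 family, a fast-evolving mammalian cluster expressed in the testis of mouse and human, rose in all 5 tested members. Of all tested miRNAs 21.2% were higher. The family's median log2 fold change was 5.72, beside 0.05 over all tested. miR-509a-5p had 26800, 27160 and 32740 CPM in Puber, against 345.1, 314.1 and 172.4 CPM in Infant. It was 104-fold higher (log2 fold change 6.70 ± 0.69, edgeR adjusted p = 5e-05) and ranked 10 in Puber and 76 in Infant. miR-514a had 285.4, 291.5 and 614.0 CPM in Puber, against 12.4, 9.78 and 1.88 CPM in Infant, a log2 fold change of 5.63 ± 0.97 (edgeR adjusted p = 0.0008).

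miR-508-5p (78.8, 71.2 and 61.4 CPM in Puber, against 2.52, 1.31 and 0.25 in Infant) and miR-509b (55.8, 54.4 and 59.9 CPM in Puber, against 2.16, 0.835 and 0.125 in Infant) rose by 5.72 and 5.81. Without Infant 31a these values were 6.48 and 6.84. miR-514b, with 75 counts in Puber and 3 in Infant (ratio 36.4, exact binomial 95% interval 11.99 to 180.5), was also called. The family's summed level was 27230 to 33480 CPM in Puber and 174.9 to 362.4 CPM in Infant, nearly all of it miR-509a-5p. Unlike miR-34c, miR-509a-5p had its highest stage mean in Puber. The means were 28900 ± 3329 CPM for Puber (SD, n = 3) and 18830 ± 5055 CPM for Adult (SD, n = 4).

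Another cluster that is X-linked in mammals, miR-105 and miR-767, rose in both members, beside 21.2% of all tested miRNAs. miR-767-5p had 20.0, 40.4 and 62.0 CPM in Puber, against 0.720, 1.31 and 1.63 CPM in Infant (log2 fold change 5.02 ± 1.25, edgeR adjusted p = 0.0063). miR-105 had 13.5, 27.6 and 31.9 CPM in Puber, against 0.360, 0.716 and 1.50 CPM in Infant (log2 fold change 4.76 ± 1.16, edgeR adjusted p = 0.00601), and 5.41 without Infant 30. The tested member of the clusters known from pluripotent cells, miR-371-5p, had 6.93, 7.55 and 8.80 CPM in Puber, against 0.180, 0.716 and 0 CPM in Infant, and rose by 4.56 (6.38 without Infant 31b).

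The miR-17-92 cluster and its paralogs, best known for driving cell growth and proliferation, rose in 6 of 8 tested members, beside 21.2% of all tested miRNAs, with a median log2 fold change of 2.21 beside 0.05. In the fit with the hairpins the median was 0.76, with 3 higher and 1 lower. miR-20b had 2337, 2749 and 3556 CPM in Puber, against 10.3, 8.83 and 19.7 CPM in Infant. The groups were far apart, with a log2 fold change of 7.80 ± 1.32 (edgeR adjusted p = 0.000749). miR-17 had 2107, 2394 and 3251 CPM in Puber, against 234.9, 180.0 and 252.3 CPM in Infant (log2 fold change 3.54 ± 0.62, edgeR adjusted p = 0.000874). miR-106a had nearly the same counts as miR-17 (37012 and 39039 in Puber, 4830 and 4829 in Infant), so whether the reads of one were also counted for the other was not tested.

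The 3 paralog clusters differed in the size of the change. In the X-linked one, miR-20b, miR-106a and miR-18b rose by 2.44 to 7.80. In the miR-17 cluster, miR-17 and miR-20a rose and miR-18a did not pass. In the miR-106b cluster, miR-93 rose by 1.97 ± 0.34 (edgeR adjusted p = 0.000749), with 1536, 1791 and 1622 CPM in Puber and 439.8, 319.1 and 504.9 CPM in Infant, while miR-106b had a log2 fold change of -1.40 and was not called. miR-20a had 1204, 1356 and 2544 CPM in Puber, against 618.1, 461.7 and 481.2 CPM in Infant (1.71 ± 0.43). miR-18b rested on 61 counts in Puber and 16 in Infant, and any of 5 left-out libraries (Infant 30, 31a and 31b, and Puber 11 and 19) ended its call.

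**Figure D2:**
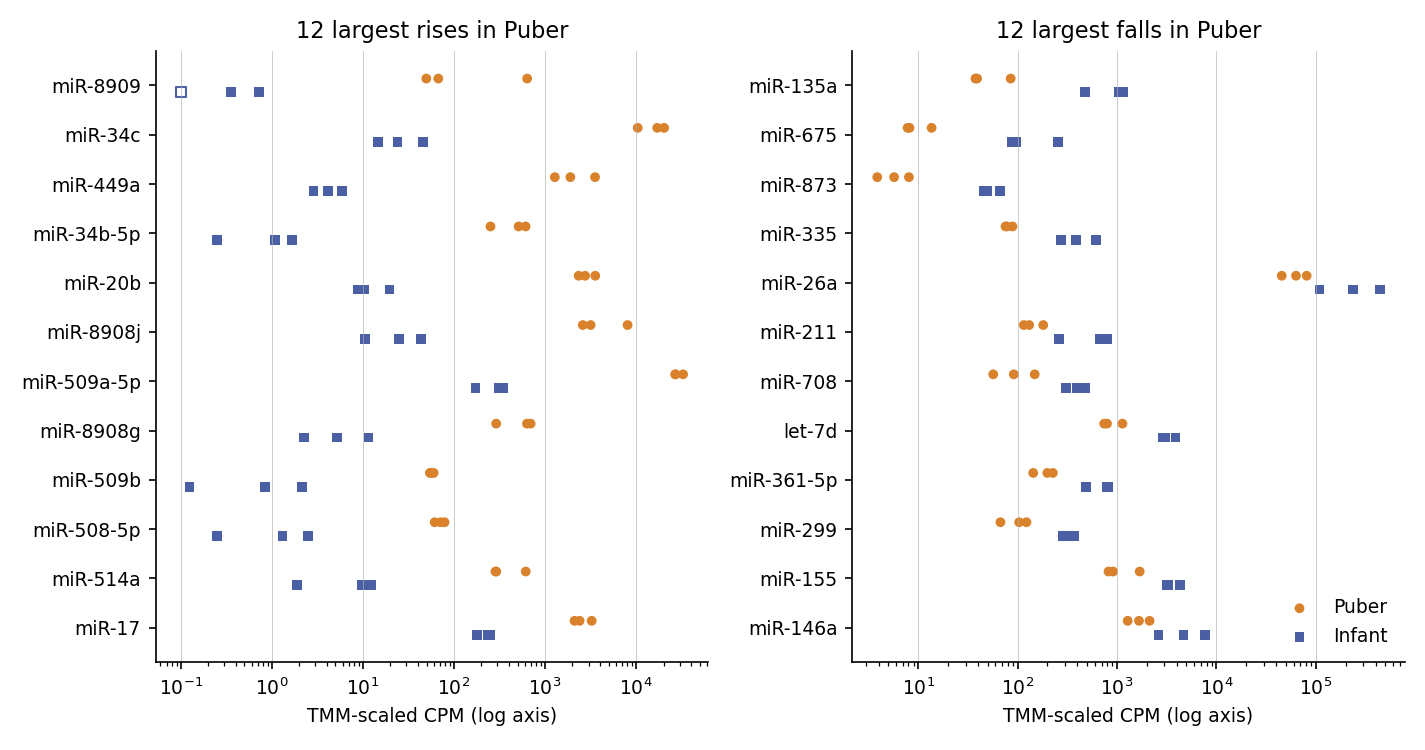
TMM-scaled CPM (log axis) in each Puber library (orange circles) and each Infant library (blue squares) for the 12 largest rises (left) and the 12 largest falls (right) among called miRNAs at 50 CPM or more in a group; the open square marks an Infant library with 0 counts, drawn at 0.1 CPM. The groups do not overlap in any row, as the choice of rows requires, and the gaps are wider among the rises than among the falls.

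Of 72 miRNAs with names numbered for the horse (such as miR-8908), 20 had enough counts to test. Of these, 14 were higher in Puber, none lower and 6 not called, beside 21.2% higher and 15.2% lower over all tested miRNAs. Rare miRNAs could pass the low-count filter through the group where they are high: 8 of the 14 had no Infant count. The tally and the median log2 fold change of 6.12 therefore describe the 20 that passed and not the 72. miR-8908j had 3163, 8048 and 2595 CPM in Puber, against 43.0, 25.1 and 10.5 CPM in Infant (log2 fold change 7.46 ± 1.07, edgeR adjusted p = 0.000749), and 6.79 without Puber 11. miR-8908g had 290.6, 632.8 and 694.3 CPM in Puber, against 11.5, 5.25 and 2.25 CPM in Infant (6.42 ± 0.99), and 7.19 without Infant 31a. All 4 tested miR-8908 genes that neighbour each other (f, g, j and k) were higher.

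miR-8909 was uneven within Puber, with 49.7, 67.3 and 636.0 CPM, against 0.720, 0.358 and 0 CPM in Infant. Its log2 fold change was 9.48 ± 2.33 (edgeR adjusted p = 0.00611), 7.39 without Puber 19, 8.87 without Infant 30 and 10.32 without Infant 31a. Another 8 of the horse-numbered rises had no count in the 3 Infant libraries together. Set against a floor of 3 counts over the Infant group (0.137 CPM), miR-9149 was at least 135-fold higher and miR-8993, the lowest of them, at least 9.22-fold higher. miR-9149 had 13.1, 36.5 and 7.84 CPM in Puber.

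Both tested miRNAs from the imprinted H19 and MEST genes fell, beside 15.2% of all tested miRNAs, and so did some of the DLK1-DIO3 region. miR-675, cut from the H19 RNA that is known for high levels in fetal tissue, had 13.7, 8.20 and 7.84 CPM in Puber, against 96.2, 87.2 and 253.7 CPM in Infant. It fell by 3.88 ± 0.71 on the log2 scale (edgeR adjusted p = 0.001), and by 3.21 without Infant 30, where it was highest. miR-335, from an intron of the imprinted gene MEST, had 89.0, 78.3 and 75.7 CPM in Puber, against 618.1, 389.3 and 275.9 CPM in Infant, and fell by 2.40 ± 0.40 (edgeR adjusted p = 0.000749).

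The DLK1-DIO3 region, whose miRNAs are expressed from the maternal chromosome, had 15 tested members: 6 lower (15.2% of all tested), none higher and 9 not called, with a median log2 fold change of -1.17. miR-411 had 7383, 7489 and 6170 CPM in Puber, against 16720, 15140 and 21390 CPM in Infant (log2 fold change -1.34 ± 0.26, edgeR adjusted p = 0.00119). miR-299 had 123.0, 103.8 and 67.3 CPM in Puber, against 309.2, 283.8 and 366.8 CPM in Infant (-1.71 ± 0.35, edgeR adjusted p = 0.00185). The most abundant member, miR-379, had 36400, 33240 and 10330 CPM in Puber, against 30100, 28740 and 32250 CPM in Infant, and was not called. The other 4 falls were miR-154a, miR-369-5p, miR-485-5p and miR-539. Each of these 4 calls was lost with Infant 30 left out, among other libraries, with values of -1.11, -0.84, -0.96 and -1.07. Under both total scalings the median of the region stayed below 0 (-0.54 and -0.52), with 1 member called, miR-299.

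The 2 most abundant miRNAs of infant testis were lower in Puber. miR-99a, which is transcribed with let-7c, had 189600, 144700 and 77330 CPM in Puber, against 425500, 452700 and 263200 CPM in Infant. It fell by 1.47 ± 0.37 on the log2 scale (edgeR adjusted p = 0.0063) and still ranked first by mean in both groups. Its neighbour let-7c did not pass, with 89400, 59080 and 40900 CPM in Puber and 76470, 70680 and 69240 CPM in Infant. miR-26a, a broadly expressed miRNA, had 80940, 63210 and 45430 CPM in Puber, against 438500, 234900 and 109000 CPM in Infant. It fell by 2.05 ± 0.42 (edgeR adjusted p = 0.00175), and by 1.42 without Infant 31a, its highest library.

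miR-135a gave the largest fall, with 85.3, 37.8 and 39.2 CPM in Puber, against 1156, 1035 and 479.5 CPM in Infant (log2 fold change -4.04 ± 0.61, edgeR adjusted p = 0.000749). miR-873 had 8.09, 3.88 and 5.74 CPM in Puber, against 66.5, 49.4 and 45.4 CPM in Infant (-3.18 ± 0.57, edgeR adjusted p = 0.000928). miR-211, from an intron of TRPM1, had 181.4, 131.0 and 115.7 CPM in Puber, against 668.4, 787.8 and 260.9 CPM in Infant, and was 4.01-fold lower (edgeR adjusted p = 0.00656). The falls of miR-708 (-1.98 ± 0.52) and miR-361-5p (-1.88 ± 0.35) were of like size, and that of miR-708 was lost under both totals.

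Several other abundant miRNAs were not called. miR-21 had 79110, 81340 and 96140 CPM in Puber, against 47900, 39850 and 107200 CPM in Infant, where library 30 stood above all Puber libraries. Without Infant 30, miR-21 was called higher (log2 fold change 0.96). miR-10b, from a HOX cluster, had 84540, 86460 and 51750 CPM in Puber, against 138500, 129900 and 97900 CPM in Infant (-0.72 ± 0.38), and was not called although the groups did not overlap. miR-100 had 91050, 76410 and 43070 CPM in Puber, against 41480, 36840 and 40870 CPM in Infant (0.82 ± 0.31), with the groups apart but the test not passed (edgeR adjusted p = 0.0535). Without Puber 19 it was called (1.10). The HOX-cluster list (miR-10, miR-196 and miR-615) had no call among 4 tested.

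The let-7 family, which holds back growth and the undifferentiated state in many tissues, split. Of 7 tested, 2 were lower (15.2% of all tested) and 5 not called, and the median log2 fold change of -0.24 turned to 0.30 and 0.33 under the total scalings. let-7d had 1136, 745.0 and 794.7 CPM in Puber, against 2906, 3067 and 3881 CPM in Infant (-1.88 ± 0.31, edgeR adjusted p = 0.000749). miR-98 fell by 1.07, but not without Infant 31a or without Puber 19 (-0.92 and -0.87, not called). let-7a, let-7c, let-7f and let-7g, each among the 10 most abundant miRNAs of both groups, lay between -0.36 and 0.02. let-7f, whose gene neighbours that of let-7d, was one of these.

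In the miR-99/100 and miR-125 families, 2 of 5 tested were lower, miR-99a and miR-125b-5p, beside 15.2% of all tested miRNAs. miR-125b-5p had 12620, 11930 and 16020 CPM in Puber, against 28490, 32640 and 46350 CPM in Infant (-1.41 ± 0.34, edgeR adjusted p = 0.00569). Its call was lost under both totals. Both tested miR-181 miRNAs were lower, beside the same 15.2%. miR-181a had 2245, 2222 and 2092 CPM in Puber, against 6204, 6168 and 4542 CPM in Infant (-1.37 ± 0.29, edgeR adjusted p = 0.00233). miR-181b fell by 1.11 ± 0.28, and both calls were lost under both totals. That of miR-181b was also lost without Puber 11, at -1.11.

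Several families gave no call in the main test. None of the 5 tested autosomal miR-15, miR-16 and miR-195 miRNAs, the 4 of the miR-30 family or the 6 of the X-linked cluster of miR-424, miR-450, miR-503 and miR-542 passed. Their median log2 fold changes of -0.23, -0.33 and -0.35 turned to 0.47, 0.31 and 0.29 under the annotated total. The cluster of miR-96, miR-182 and miR-183, known from sensory cells, was not called either. Its 3 members were higher in every Puber library than in any Infant library, as were 29.3% of all tested miRNAs. miR-182 had 141.5, 175.6 and 124.1 CPM in Puber, against 72.0, 38.5 and 14.9 CPM in Infant (1.82 ± 0.68, edgeR adjusted p = 0.0509). All 3 were called under both totals and without Infant 31a. The table held no annotated member of the miR-23, miR-24, miR-27, miR-29 and miR-200 families or miR-202. This holds for names only: whether unnamed hairpins include such miRNAs was not tested.

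**Figure D3:**
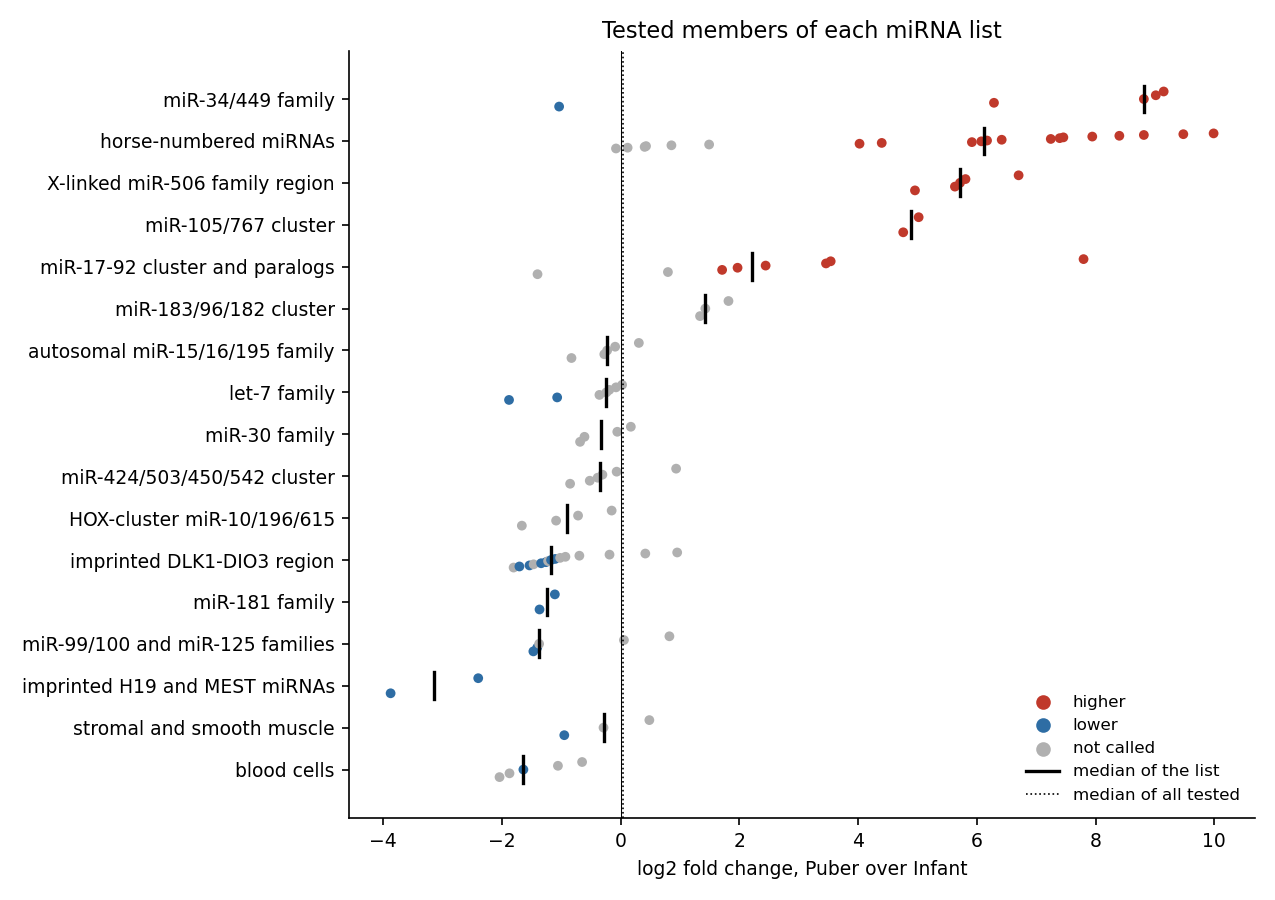
log2 fold change, Puber over Infant, of each tested member of 17 lists, with red for higher, blue for lower and grey for not called. Thick bars are list medians and the dotted line is the median of all tested miRNAs, 0.05. The medians of the miR-15 to miR-195, let-7, miR-30, miR-424 and stromal lists are below 0 here and above 0 when libraries are scaled by their totals.

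Markers of other cell types were read beside these values. The 3 markers of meiotic and later germ cells, miR-34b, miR-34c and miR-449a, all rose and are part of the family above. Their summed level was 11950 to 22800 CPM in Puber and 17.7 to 52.8 CPM in Infant. For stromal and smooth muscle, 1 of 3 tested was lower, beside 15.2% of all tested miRNAs. It was miR-199a-5p (-0.95 ± 0.25, edgeR adjusted p = 0.00753), not called without Infant 31a at -0.70. The summed levels of the 3 were 23660 to 31470 CPM in Puber and 32330 to 51210 CPM in Infant. The median of these 3 was -0.29, but 0.25 and 0.28 under the totals, and 1 of them was called higher. The endothelial miR-126-5p was not called.

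For blood cells, 1 of 5 tested was lower, near the 15.2% of all tested miRNAs, with summed levels of 1777 to 2706 CPM in Puber and 4311 to 10790 CPM in Infant. The lower one was miR-155, an immune-cell miRNA, with 913.7, 822.7 and 1693 CPM in Puber, against 3248, 3153 and 4279 CPM in Infant (-1.64 ± 0.31, edgeR adjusted p = 0.00119). miR-146a, induced in immune cells by inflammation and not in the list, had 2129, 1666 and 1282 CPM in Puber, against 7641, 4670 and 2614 CPM in Infant (-1.56 ± 0.46). Its call was lost without Infant 31a (-1.07) and without Puber 19 (-1.38). miR-146a and miR-21 are the 2 tested miRNAs reported in undifferentiated spermatogonia of mice. The red-cell miR-486-5p was not called. It had 265.4, 748.9 and 509.6 CPM in Puber and 243.1, 324.7 and 5014 CPM in Infant, high in Infant 30 alone. Without that library its log2 fold change was 0.84 in place of -1.87. The part of blood in other differences was not tested.

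Off-tissue markers were read as well. Liver miR-122 had 15.9 to 22.9 CPM in Puber and 7.74 to 14.0 CPM in Infant and was not called. miR-9a, known from neural tissue, had 224.7, 263.0 and 381.8 CPM in Puber, against 102.3, 96.4 and 84.1 CPM in Infant (1.62 ± 0.34, edgeR adjusted p = 0.00187), but it was not called in the fit of all entries, at 0.08. Other neural markers did not rise with it: miR-124 had no count in either group, and miR-129a-5p and miR-129b-5p were not called (0.23 each). miR-499-5p, from an intron of a muscle myosin gene, had 63.6, 108.5 and 125.2 CPM in Puber, against 36.4, 30.8 and 38.3 CPM in Infant (1.50 ± 0.35, edgeR adjusted p = 0.00424), but its change was -0.01 in the fit of all entries.

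Puber libraries held a wider range of annotated miRNAs. Those with at least 5 counts numbered 187, 184 and 184 in Puber, against 167, 172 and 166 in Infant, although Infant was sequenced more deeply. The difference in means was 16.7 (p = 0.1 by an exact two-sided permutation test, which cannot go lower with 3 against 3). With every library thinned to 3.96 M counts, 181 ± 2.31 were detected in Puber and 157 ± 0.577 in Infant (SD, n = 3 each). The 10 most abundant miRNAs took 74.2 ± 4.75% of annotated counts in Puber and 81.3 ± 3.21% in Infant (SD, n = 3 each), a difference of -7.1 percentage points that overlapped between groups (exact two-sided permutation p = 0.2).

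Most predicted hairpins that had enough counts to test were higher in Puber. Of 733 tested with the library sizes and scaling of the annotated miRNAs, 681 (92.9%) were called by edgeR, 670 higher (91.4%) and 11 lower (1.50%). The groups did not overlap for 681 (92.9%), with 664 higher (90.6%) and 17 lower (2.32%). The median log2 fold change was 7.17. In the Infant group 263 of the tested hairpins had no count, and 458 had 3 counts or fewer in all. Such hairpins passed the low-count filter through libraries of other stages, Puber among them, so they could hardly come out lower, and the counts describe the 733 and not the 1461. Hairpins with at least 5 counts numbered 715, 711 and 755 of all 1461 in Puber, against 154, 187 and 198 in Infant. With division by the total of all entries 677 were higher and 5 lower, and in the joint fit of all entries 645 and 29. With TMM scaling by the hairpins themselves, 111 were higher and 74 lower.

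Many of the hairpins are variants of one another, so calls are not independent. Linking hairpins that share any run of 16 bases gave 906 families, of which 816 had a single member, and 1 family of 372. Of its 358 tested hairpins 356 were higher and none lower, with a median log2 fold change of 7.54. In smaller families 156 of 177 were higher, 7 lower and 14 not called (median 6.89), and among hairpins sharing no sequence 158 of 198 were higher, 4 lower and 36 not called (median 6.32). With 1 hairpin kept for each family, 209 of 261 were higher and 8 lower. Counts in the 6 libraries were identical to those of another hairpin for 188 tested hairpins, such as 16_1318773 and 3_3707936.

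**Figure D4:**
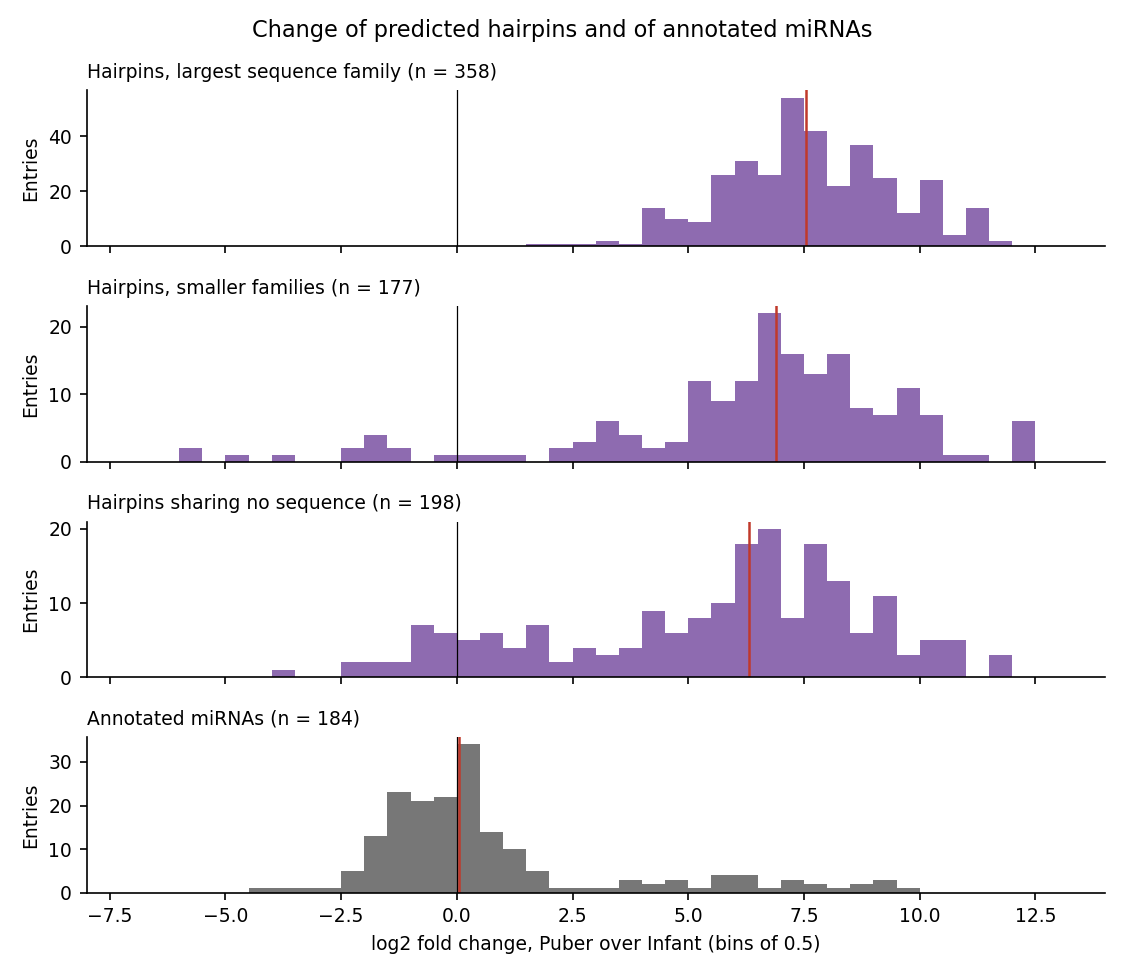
Number of entries in bins of 0.5 of log2 fold change, Puber over Infant, for tested hairpins of the largest sequence family (358), of smaller families (177) and sharing no sequence (198), and for annotated miRNAs (184). Red lines are medians: 7.54, 6.89, 6.32 and 0.05; the hairpin panels lie to the right of the annotated miRNAs, with scaling factors taken from the annotated miRNAs.

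The summed level of the family of 372 was 22060, 27600 and 27550 CPM in Puber, against 129.0, 136.6 and 151.4 CPM in Infant. All Puber libraries lay far above all Infant libraries. Members with shared sequence may count the same reads, so the sum is not a number of molecules. The family took 13.5 to 19.2% of hairpin counts in Puber and 0.0749 to 0.0998% in Infant. The run of 16 bases shared by the largest number of members, ggaagauuagcccuga, was in 41 of the 372 and in no other hairpin (2.81% of all), on either strand. All 41 were tested and all were higher. The family is thus linked in chains and not by 1 common stretch, and its members lie on 32 chromosomes.

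The 3 members shown with this run in capitals kept close levels. 20_2272886 had 307.5, 389.9 and 311.3 CPM in Puber, against 2.70, 1.79 and 1.88 CPM in Infant (log2 fold change 7.30 ± 0.91, edgeR adjusted p = 1.2e-05). 16_1318773 and 3_3707936, which share their counts, had 201.2, 197.9 and 137.7 CPM in Puber, against 1.44, 1.55 and 0.751 CPM in Infant (7.15 ± 0.87, edgeR adjusted p = 1.2e-05). The most abundant member of the family, 2_3250540, had 549.6, 903.4 and 1050.0 CPM in Puber, against 1.80, 0.954 and 1.13 CPM in Infant (9.32 ± 1.15, edgeR adjusted p = 1.2e-05).

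**Figure D5:**
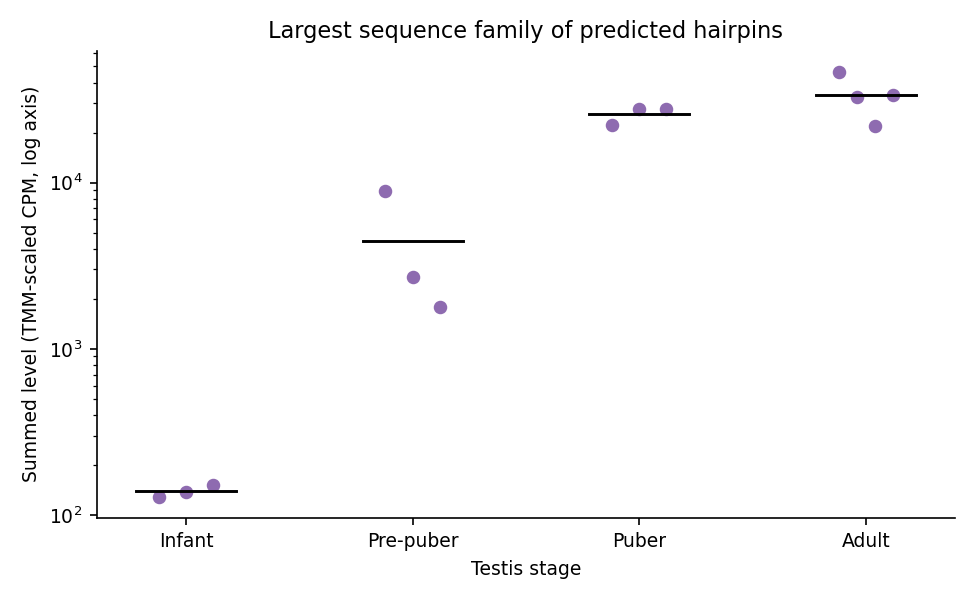
Summed TMM-scaled CPM (log axis) of the 372 hairpins of the largest family in each testis library by stage, with a bar at each stage mean. Infant libraries lie near 139, Pre-puber libraries spread from 1787 to 8883, Puber libraries lie between 22060 and 27600, and Adult libraries between 22040 and 46300.

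Over the stages the sums averaged 139.0 ± 11.4 CPM (Infant), 4461 ± 3857 CPM (Pre-puber), 25740 ± 3184 CPM (Puber) and 33600 ± 9932 CPM (Adult) (SD, n = 3, 3, 3 and 4). Puber and Adult libraries overlapped. Pre-puber lay between Infant and Puber in every library, with library 14 at 8883 CPM above 3a and 3b at 2714 and 1787 CPM.

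The 5 largest hairpin rises among those at 50 CPM or more had no count in Infant. Against the floor of 3 counts over the group, 11_320285 was at least 717-fold higher, with 106.5, 111.6 and 77.8 CPM in Puber. 21_2297470 was at least 540.2-fold higher, with 30.2, 71.6 and 119.3 CPM in Puber. X_5269294, 9_5044670 and 7_4552633 were at least 454-, 451- and 401-fold higher. Only 7_4552633 belongs to the family of 372. On the X chromosome lay 28 of the 733 tested hairpins (3.82%) and 24 of the 670 that rose (3.58%).

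Of the 186 tested hairpins at 50 CPM or more in Puber 174 were higher, beside 91.4% of all tested hairpins. This choice by Puber level itself favours rises. Of the 22 at that level in Infant, 2 were higher in Puber, 8 lower and 12 not called, a choice by Infant level that itself disfavours rises. The most abundant in Puber, 1_1707588, had 54770, 75090 and 48870 CPM in Puber, against 15220, 11590 and 3703 CPM in Infant (log2 fold change 2.55 ± 0.46, edgeR adjusted p = 0.000196). With scaling by the hairpins it was lower (-3.50), and in the fit of all entries it was not called. Its bases 2 to 8, UCCUAUG, were held by no other hairpin, and whether it is a known miRNA was not tested.

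6_4351986, the most abundant in Infant, had 57080, 49210 and 45130 CPM in Puber, against 98140, 106500 and 114300 CPM in Infant. It fell by 1.08 ± 0.23 on the log2 scale (edgeR adjusted p = 0.000523), a call lost under the total of all entries. Its bases 2 to 8, GAGGUAG, read as the seed of the let-7 family, a match of letters that no other of the 1461 hairpins had. 6_4267002 had 7755, 5216 and 2954 CPM in Puber, against 37010, 27030 and 13700 CPM in Infant (-2.29 ± 0.42, edgeR adjusted p = 0.000196). Its bases 2 to 8, UCAAGUA, read as the seed of the miR-26 family and were likewise held by no other hairpin. The table names neither hairpin. Annotated miR-26a was lower in Puber, while of the 7 tested let-7 miRNAs 2 were lower and 5 not called.

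Falls were named by size among called hairpins at 50 CPM or more in a group, with the groups apart. Only the largest fall of each sequence family was kept. The other 3 falls named in this way were 3_3841966 (497.8, 471.5 and 284.3 CPM in Puber, against 1459, 1416 and 1118 CPM in Infant, -1.67), 24_2714481 (23.7, 26.97 and 25.4 CPM in Puber, against 143.4, 78.9 and 122.1 CPM in Infant, -2.18) and 7_4644190. The call of 24_2714481 was lost without Puber 10 (-2.10). 7_4644190 had 0.578, 2.37 and 0.956 CPM in Puber, against 11.9, 26.1 and 189.5 CPM in Infant. Its fall of 5.85 ± 1.39 (edgeR adjusted p = 0.000961) rested largely on Infant 30, without which it was -3.86, and was -6.58 without Puber 11.

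Hairpins took 14.6 ± 1.95% of all counts in Puber and 10.2 ± 1.04% in Infant (SD, n = 3 each), a difference of 4.41 percentage points (exact two-sided permutation p = 0.1, the smallest possible). With 1 hairpin for each family the difference was 2.14 points (exact two-sided permutation p = 0.2). In Infant the share was led by the 11 hairpins called lower, which held 79.9 to 85.9% of hairpin counts, against 30.9 to 40.1% in Puber. The 670 called higher held 51.1 to 62.1% of hairpin counts in Puber and 2.63 to 9.01% in Infant. Hairpins that began with u were 38.5% of those tested and 37.6% of those that rose.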

How the data were processed

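Small RNA was sequenced from 3 Puber and 3 Infant testis libraries, fitted with the other testis stages (13 libraries). The deposited values were read counts per entry and RPM; in the deposited columns each RPM equalled the count over its column total within 0.005. Per the submitters' processing notes, Trimmomatic (version not given) and EquCab 3.0 were used; the aligner, counter and annotation are not given in the sources used here. Columns were matched by title number. Number 4 occurs for both Adult and sperm, and its columns were told apart by the prefix of their names. That is an inference, which places an Adult library in the fit and does not touch the Puber and Infant columns.

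Counts were tested with edgeR 4.0.16 (R 4.3.3): filterByExpr by group, TMM, quasi-likelihood test, Benjamini-Hochberg adjusted p under 0.05. Standard errors, derived from the F statistic, are approximate. Intervals and floors cover counting error only. Of the 302 annotated entries, 1 was kept for each of 274 names. Neighbouring miRNA genes (within 10 kb) came from a RefSeq table of another assembly (270 names matched), used for neighbours only. limma 3.58.1 and DESeq2 1.42.0 served alternatives, and the scripts were tested on simulated data.

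The text names the 12 largest rises and falls (called, 50 CPM in a group, groups apart), the 10 most abundant miRNAs of each group, up to 4 abundant members of each list, and 5 hairpin rises and falls. These hairpins met the same criteria, with only the largest change kept for each sequence family. Grouping by seed could not be done without mature sequences. Members and lists were chosen with earlier results of these data known.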

Additional observations from a re-analysis of the deposited data

How the results depend on the processing

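No paired analysis was possible because the title numbers of the Puber libraries (10, 11 and 19) and the Infant libraries (31a, 31b and 30) share none. Annotated miRNAs called numbered 67, and between 60 and 78 under all alternatives but one: with all entries in 1 fit, 131 were called (31 higher, 100 lower), with a median log2 fold change of -1.47. Leaving out 1 library gave 60 to 67 calls of annotated miRNAs and 671 to 694 of hairpins, beside 681. Hairpin calls fell to 185 (111 higher, 74 lower) with TMM of the hairpins and to 217 of 261 with 1 hairpin per family, an alternative added after seeing the data. Among features called in either of the 2 fits compared, signs turned in the fit of all entries for miR-499-5p (-0.01), miR-340-5p (-0.07), miR-1839 (-0.40), miR-21 (-1.05), miR-30c (-1.38) and let-7g (-1.51), under the annotated total for let-7a (0.48), and with TMM of the hairpins for 1_1707588 (-3.50). Another 23 features, called in neither fit, also changed sign at least once. Of 78 called features, 64 could be recomputed under all 17 alternatives, and 37 of these kept their call in each. The other 14 had 11 to 16 values. A left-out library ended 1 of 39 rises (miR-18b) and 12 of 28 falls. DESeq2 called 74 annotated miRNAs (45 higher, 29 lower) and gave no adjusted p for miR-34c. Differences in detected miRNAs, in the share of the 10 most abundant and in the hairpin share kept their direction under each alternative run. Summing libraries that share a title number (Infant 31a and 31b, Pre-puber 3a and 3b) gave 60 calls. Depth limits rare features: sizes of rises against Infant levels of 0 to 3 counts are bounds or uncertain.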

Other observations

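Further annotated miRNAs outside the lists passed the test, and were picked for naming after their values were seen. miR-340-5p had 3359, 3838 and 4640 CPM in Puber, against 1782, 1287 and 1411 CPM in Infant (log2 fold change 1.40 ± 0.30, edgeR adjusted p = 0.00223). miR-1839 had 1871, 1442 and 1603 CPM in Puber, against 850.3, 721.1 and 761.0 CPM in Infant (1.08 ± 0.30, edgeR adjusted p = 0.0123). Both lay wholly above Infant, and both turned below 0 when hairpins and annotated miRNAs were fitted together. miR-874 was rarer, with 24.1, 15.1 and 18.7 CPM in Puber, against 1.98, 2.74 and 2.75 CPM in Infant (2.94 ± 0.50, edgeR adjusted p = 0.000749). In the joint fit it was 1.41 and not called.

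miR-324-5p had 5.78, 8.42 and 7.84 CPM in Puber, against 79.6, 39.5 and 14.8 CPM in Infant. It fell by 2.60 ± 0.66 (edgeR adjusted p = 0.00656), and by 1.86 without Infant 31a, with the call lost under both total scalings. In a cluster of neighbouring miR-188, miR-362, miR-500, miR-501, miR-502, miR-532 and miR-660 genes, 1 of 7 tested members was called, beside 36.4% of all tested miRNAs. This was miR-500 (lower by 1.36), and its call was lost without Infant 31a (-0.97), Puber 10 (-1.39) or Puber 19 (-1.23).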
